A study of Acipenser schrenckii with 2 samples.

Results

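The family of miR-130, miR-301 and miR-454 was described on miRNA arrays of Amur sturgeon (Acipenser schrenckii) gonad. Its members were the probes for miRNAs whose name, without the 3-letter species prefix, is miR-130, miR-301 or miR-454 with any letter, copy or arm. The rule found 20 of the 663 miRNA probes on the chip: 5 for miR-130, 10 for miR-301 and 5 for miR-454. Of these 20 probes, 19 were detected on at least one array by the limit given below. The rule read names only and used no measured value, but the family was picked for description with earlier results of these arrays known.

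The series holds 2 single-colour (Cy3) arrays, one of a male gonad and one of a female gonad. Each gonad came from 1 fish of 11 months in a condition labelled normal, and the labels call the stage earlier sex differentiation. The labels name no treatment or genotype. One fish stands for each sex, which allows no test of male against female, and no p-value is given. Every ± below is the SD over the 5 repeat spots of a probe on 1 chip, which is technical error only. In whole gonads, fewer cells of a type and less RNA per cell cannot be told apart.

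MicroRNAs are short RNAs that pair with target mRNAs mainly through their seed, bases 2 to 8 from the 5′ end, and lower the output of those targets. The miR-130, miR-301 and miR-454 miRNAs share a seed, so they are predicted to share many targets, and in mammals several components of TGF-beta and BMP signalling have been reported among them. TGF-beta superfamily ligands such as anti-Müllerian hormone, Gsdf and Gdf9 act in the gonads of fishes. In human cells, miR-130a has been linked to homeobox genes that restrain vessel growth, miR-130b to the stress gene TP53INP1, and miR-301a to NKRF, a repressor of NF-kappaB. How these miRNAs act in sturgeon is not known from the sources used here.

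The targets of the probes that the results turn on are shown first, as the chip lists them 5′ to 3′, because several differ by 1 base or are nested in each other. Capitals mark bases 2 to 8. The prefixes are those of the chip design (dre zebrafish, ola medaka, ipu channel catfish, ccr common carp, hhi Atlantic halibut), and a probe does not show that the sturgeon holds exactly that sequence. The sequences come from the deposited scanner files, and no genome was used here to place them.
dre-miR-130a: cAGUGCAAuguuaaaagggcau
dre-miR-130b: cAGUGCAAuaaugaaagggcau
dre-miR-130c: cAGUGCAAuauuaaaagggcau
ola-miR-130c: cAGUGCAAuauuaaaaggg
ccr-miR-454b: uAGUGCAAuauugcuuauagg
dre-miR-454b: uAGUGCAAuauugcuuauaggg
ipu-miR-454b: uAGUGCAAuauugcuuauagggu
dre-miR-454a: uAGUGCAAuauugcuaauaggg
ola-miR-301b-3p: cAGUGCAAuaguauuguc
dre-miR-301a: cAGUGCAAuaguauugucaaag
hhi-miR-301: cAGUGCAAuaguauugucaaagca
dre-miR-301c: cAGUGCAAuaguauugucauag
ipu-miR-301c: cAGUGCAAuaguauugucauagc
ola-miR-301a-3p: gUGCAAUAguauugucaaagca
ipu-miR-130c: gCCCUUUUucuguuguacu
ola-miR-301a-5p: gCUCUGACuucauugcacuac

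The family seed AGUGCAA stood at bases 2 to 8 in 16 of the 20 targets and in 0 targets outside the family. ola-miR-301a-3p is the miR-301a sequence without its first bases CA, so its bases 2 to 8 are other letters. The remaining 3 targets, ola-miR-301a-5p, ola-miR-301b-5p and ipu-miR-130c, were taken as the opposite arm of the hairpin. The name of ipu-miR-130c gives no arm, but its target shares a run of 8 bases with the reverse complement of dre-miR-130c and at most 2 bases in a row with dre-miR-130c itself. Targets were 18 to 24 bases long. No probe outside the family had a target within 2 edits of a member.

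Both gonads gave signal for the family. A probe was called detected where at least 3 of its 5 spots were brighter than 95% of the empty spots of that array (limit 113 on the male and 103 on the female array). By that limit 19 members were detected on the male array and 16 on the female array, against 430 (male) and 476 (female) of all 663 probes. The 3 members detected on the male array only were dre-miR-301b, dre-miR-301c and dre-miR-454a, all close to the limit, and ccr-miR-454a was detected on neither array. With the limit at the 99th percentile of the empty spots, 13 members were detected on at least one array. Before normalization the male array was the brighter one: intensity above the empty-spot median was 1.44-fold higher there at the median of the 416 probes detected on both arrays. The differences below are taken after quantile normalization, which removes that shift. Of the chip's marker probes, miR-202, known from vertebrate gonads, was read by ipu-miR-202 alone of 3 probes (8.58 ± 0.31 in the male gonad and 6.68 ± 0.12 in the female, log2 normalised intensity). miR-192 and miR-194 of kidney and gut epithelium were detected with 6 of 8 probes. All 6 read higher in the female gonad, 4 of them past the size rule described below. The median difference of those 6 was -1.11. Both detected probes of 4 for the hepatocyte miRNA miR-122 were higher in the male, by 1.32 and 1.26. Probes for striated muscle (17 of 19 detected, median -0.25), erythroid cells (6 of 6, -0.36) and skin (9 of 10, -0.12) held none past the size rule described next. The part of other cell types in the family's values was not tested.

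In the male gonad, probes for miR-130c and miR-130b and most probes for miR-454 read higher than in the female gonad, while the probes for miR-130a and for miR-301a read lower. The spots of the arrays overlapped for dre-miR-130c, ipu-miR-130c and ipu-miR-454b among the higher ones, and for ccr-miR-301a and ola-miR-301a-5p among the lower ones. These directions hold for the processing used here: without normalization the miR-130a and miR-301a probes read higher as well, dre-miR-301a also did with cyclic loess (0.06), and ipu-miR-130c (-0.30) and dre-miR-454a (-0.37) read lower with 75th percentile scaling. Each probe was also set against the median difference of the chip in 16 settings. dre-miR-130a, ccr-miR-301a, hhi-miR-301 and ola-miR-301a-3p lay above it in 0, ola-miR-301a-5p in 1 and dre-miR-301a in 3. ola-miR-130c, dre-miR-130b, dre-miR-130c and the miR-454b probes lay above it in all 16, ipu-miR-130c and dre-miR-454a in 14. A single member, ola-miR-130c, passed the rule used for the whole chip: detected, at least 2-fold apart (1 on the log2 scale) and with no overlap between the spots of the arrays. It was higher in the male gonad by 1.13 on the log2 scale, or 2.19-fold. No member was higher in the female gonad by that rule. Of all 490 probes detected on at least one array, 4.69% passed toward the male and 1.63% toward the female, 6.33% in all, so 1 and 0 of 19 members is near the share of the chip.

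The median male minus female difference was 0.21 over the 19 detected members (-0.51 to 1.13; -0.26 with 75th percentile scaling), and -0.06 over the 490 detected probes of the chip (-1.30 to 2.30). Of the members 13 lay above 0 and 6 below, against 211 above and 274 below on the chip. The spots of the arrays did not overlap for 6 members that were brighter in the male and 4 that were brighter in the female gonad. On the chip, 19.4% of detected probes were apart toward the male and 23.7% toward the female, 43.1% in all. The scaling moves every probe: the median of the chip was 0.37 without normalization and -0.23 with 75th percentile scaling. The family median was 0.34 and -0.26 in those settings, so there it did not lie above that of the chip. Those settings differ only by the same shift of every probe, so they make a single comparison. Intensity above the empty spots and before normalization went the other way. The median ratio was 1.99 for the 16 members detected on both arrays, 11 of them above the 1.44 of the chip. By subfamily the median was 0.55 for the 5 miR-130 probes (0.29 without stray spots, those over 0.5 from the median of their probe), 0.32 for the 4 detected miR-454 probes and 0.0055 for the 10 miR-301 probes. Each subfamily median covers probes that differ widely, as the single values show, and members are related sequences that share RNA, not replicates.

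**Figure D1:**
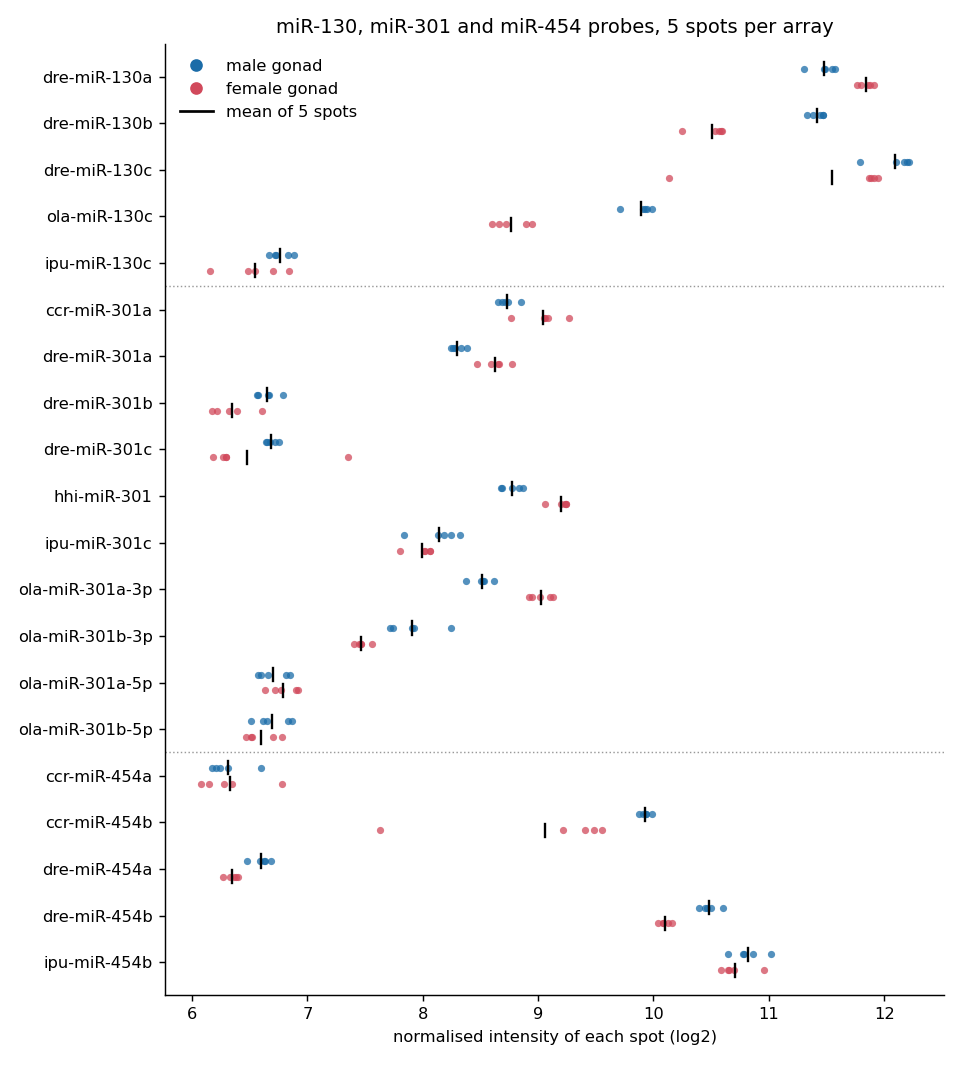
Normalised intensity (log2, x axis) of each of the 5 spots of every member in the male (blue, upper row) and female gonad (red, lower row), with black ticks at the mean. The spots of ola-miR-130c and dre-miR-130b lie apart with the male higher, those of dre-miR-130a and ola-miR-301a-3p lie apart with the female higher, and dre-miR-130c, ccr-miR-454b and dre-miR-301c each have 1 female spot far from the others.

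Among the miR-130 probes, ola-miR-130c has a 19-base target that begins the longer dre-miR-130c target, so it cannot tell a short form from a longer one. Its 5 spots gave 1062 to 1284 in the male gonad (median 1236) and 306 to 386 in the female gonad (median 331), as uncorrected intensity. After normalization it read 9.90 ± 0.11 in the male gonad and 8.77 ± 0.15 in the female. The lowest male spot was far above the highest female spot. Of the 490 detected probes, 18 had a larger difference toward the male. Above the empty spots and before normalization the intensity was 4.41-fold higher in the male, against 1.44-fold for the chip's median probe.

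dre-miR-130c, whose target starts with the same 19 bases and adds CAU, showed a smaller gap. Its male spots read 4379 to 5863 and 4 of its female spots 3029 to 3208, while the remaining female spot read 923. With that spot included the values were 12.10 ± 0.18 in the male gonad and 11.55 ± 0.79 in the female, a difference of 0.55 that lies within the spread of the spots. Without it the values were 12.14 ± 0.18 in the male and 11.85 ± 0.04 in the female, and the difference was 0.29. On the normalised scale the spots of the arrays overlapped in either case, while the uncorrected readings did not.

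dre-miR-130b differs from dre-miR-130c by 2 substitutions (A11U and G13A, from miR-130b to miR-130c, counted from the 5′ end of the target). Its male spots read 3134 to 3455 and its female spots 1004 to 1270. After normalization it read 11.42 ± 0.06 in the male gonad and 10.50 ± 0.15 in the female. The difference of 0.91 (1.88-fold) was several times the spread of the spots and the largest among the members that stayed below the 2-fold limit. It was 0.87 to 0.98 in the other settings tried, except for 1.49 without normalization.

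dre-miR-130a differs from dre-miR-130c by 1 substitution (G10A, from miR-130a to miR-130c) and went the other way. It read 11.48 ± 0.10 in the male gonad and 11.84 ± 0.06 in the female, a difference of -0.36 with no overlap between spots. Its uncorrected intensity was in fact higher in the male, 3535 ± 245 against 3007 ± 119 in the female, by a factor below that of the chip's median probe. The direction for miR-130a is therefore relative to the chip and turned to 0.23 without normalization. The opposite-arm probe ipu-miR-130c was dim in both gonads, at 6.76 ± 0.09 in the male and 6.54 ± 0.26 in the female, and its spots overlapped. Its difference of 0.22 was -0.30 with 75th percentile scaling and 1.14 with plain background subtraction.

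**Figure D2:**
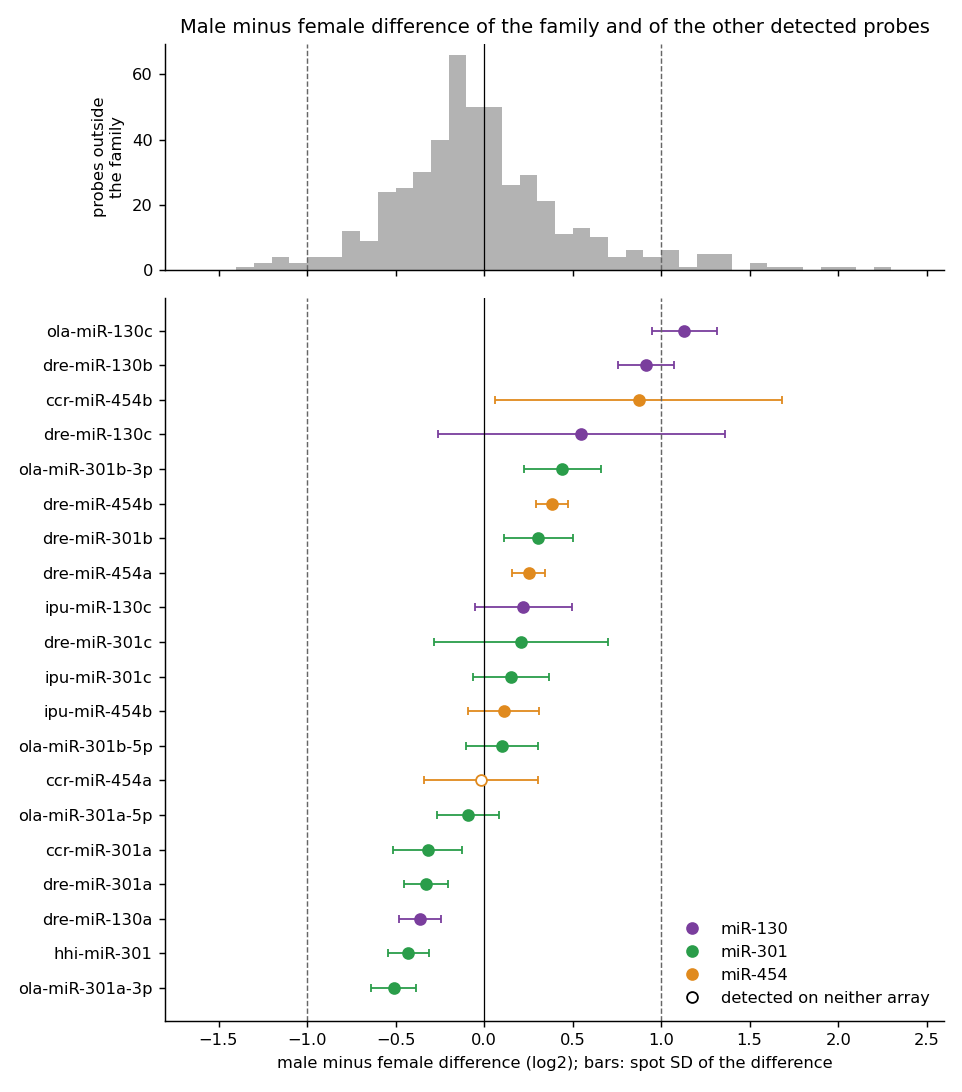
Male minus female difference (log2, x axis) of each member (lower panel, dots coloured by subfamily; bars are the spot SD of the difference) below a histogram of the 471 detected probes outside the family (upper panel, y axis number of probes). Dashed lines mark 2-fold. Members span from -0.51 for ola-miR-301a-3p to 1.13 for ola-miR-130c, and miR-130 probes lie on both sides of 0.

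The miR-454 probes fall into a miR-454b set with clear signal and a miR-454a pair near the limit of detection. The miR-454b probes were nested, at 21, 22 and 23 bases. ccr-miR-454b, the shortest, read 9.93 ± 0.04 in the male gonad and 9.06 ± 0.81 in the female, with a female spot at 181 against 513 to 646 for the others. Its difference of 0.87 became 0.52 without that spot. dre-miR-454b, 1 base longer, read 10.48 ± 0.07 in the male gonad and 10.10 ± 0.05 in the female, 0.38 higher in the male and with no overlap between spots. ipu-miR-454b, the longest, read 10.82 ± 0.14 in the male and 10.71 ± 0.14 in the female, and its spots overlapped.

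dre-miR-454a differs from dre-miR-454b by the single substitution A16U (from miR-454a to miR-454b). It was detected on the male array only, at 6.60 ± 0.08, and read 6.35 ± 0.05 on the female array. Set against the lowest detected value of the female array, the male value was larger by at least 1.13-fold, but its difference of 0.25 turned to -0.37 with 75th percentile scaling. ccr-miR-454a, 1 base shorter, read 6.31 ± 0.17 in the male gonad and 6.32 ± 0.27 in the female, and was detected on neither array.

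After quantile normalization the miR-301 probes split by their 3′ ends, though few of those for miR-301b and miR-301c had clear signal. Those for miR-301a, which end in AAAG with up to 2 further bases, all read lower in the male gonad after quantile normalization. dre-miR-301a read 8.30 ± 0.06 in the male and 8.63 ± 0.11 in the female, and ccr-miR-301a read 8.73 ± 0.08 in the male and 9.05 ± 0.18 in the female. hhi-miR-301 read 8.77 ± 0.09 in the male and 9.20 ± 0.08 in the female, and ola-miR-301a-3p, which lacks the first bases, read 8.51 ± 0.08 in the male and 9.02 ± 0.09 in the female. The differences were -0.33, -0.32, -0.43 and -0.51, and only the spots of ccr-miR-301a overlapped. As for miR-130a, all 4 had higher uncorrected intensities in the male gonad. For hhi-miR-301 these were 564 to 641 in the male against 455 to 517 in the female. All 4 turned to 0.20 to 0.50 without normalization. Male over female ratios above the empty spots, before normalization, lay below the 1.44 of the chip for ccr-miR-301a, hhi-miR-301 and ola-miR-301a-3p. For dre-miR-301a the ratio was 1.59, above that of the chip. Its difference without normalization, 0.50, was also above the chip median of 0.37. Relative to the chip, dre-miR-301a thus did not read lower in the male before normalization.

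The probes for miR-301b and miR-301c lay on the other side of 0, except that dre-miR-301b, dre-miR-301c and ola-miR-301b-5p read below it with 75th percentile scaling (-0.29, -0.35 and -0.42). With that scaling dre-miR-301a, at -0.10, lay above dre-miR-301b and dre-miR-301c. Without normalization it did so too, at 0.50 against 0.31 for dre-miR-301b and 0.25 for dre-miR-301c. There ccr-miR-301a (0.34) also lay above both, and hhi-miR-301 (0.26) above dre-miR-301c. The split by 3′ ends thus did not hold for these dim probes in either setting. ipu-miR-301c, which differs from ccr-miR-301a by the single substitution U20A (from miR-301c to miR-301a), read 8.14 ± 0.18 in the male gonad and 7.99 ± 0.11 in the female, with overlapping spots. dre-miR-301c, 1 base shorter, was detected on the male array only (6.69 ± 0.05, against 6.48 ± 0.49 on the female array), and 1 of its female spots read 180 while the other 4 read 88 to 94. dre-miR-301b was detected on the male array only (6.65 ± 0.09, against 6.34 ± 0.17 on the female array). After quantile normalization the male value of dre-miR-301b was larger by at least 1.17-fold, against the lowest detected value of the female array. For dre-miR-301c the male value was 1.16-fold its own female mean, which its stray spot puts above that lowest value. This is its plain fold and not a lower bound. In the authors' deposited table dre-miR-301c is listed at 34.7 for the male and at the floor of 0.01 for the female.

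ola-miR-301b-3p is the shortest member, with 18 bases that begin every full-length miR-301 target on the chip, so it cannot tell miR-301a, miR-301b and miR-301c apart. Its spots read 278 to 394 in the male and 154 to 169 in the female gonad. After normalization it read 7.91 ± 0.21 in the male and 7.47 ± 0.06 in the female, 0.44 higher in the male with no overlap. The opposite-arm probes of miR-301 were dim: ola-miR-301a-5p read 6.70 ± 0.13 in the male and 6.79 ± 0.12 in the female, and ola-miR-301b-5p 6.69 ± 0.15 in the male and 6.59 ± 0.13 in the female. The spots of both overlapped.

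After quantile normalization, in the nested sets of miR-454b and miR-130c each shorter probe lay further toward the male than the longer one. For miR-454b the difference was 0.87, 0.38 and 0.11 at 21, 22 and 23 bases, and 0.52, 0.34 and 0.09 without stray spots. In the authors' deposited table the male over female ratios were 1.37, 1.53 and 1.02, so there the 21-base probe lay below the 22-base one. For miR-130c the difference was 1.13 at 19 bases and 0.55 at 22 bases, and 1.14 and 0.29 without stray spots. From the 18-base ola-miR-301b-3p to the miR-301a targets of 22, 23 and 24 bases it was 0.44, -0.33, -0.32 and -0.43. Intensity above the empty spots and before normalization gave the same order for miR-454b and miR-130c, with male over female ratios of 2.75, 2.25 and 1.67 for miR-454b and of 4.41 and 2.07 for miR-130c. The 2.75 and the 2.07 include the low female spot of ccr-miR-454b and of dre-miR-130c. For the miR-301a set these ratios were 3.24, 1.59, 1.34 and 1.26. For miR-301b the normalised difference was 0.44 and 0.31 at 18 and 22 bases, and 0.35 and 0.30 without stray spots. For miR-301c it was 0.44, 0.21 and 0.15 at 18, 22 and 23 bases. Without stray spots the miR-301c values were 0.35, 0.44 and 0.15, which do not fall at each step. The ratios before normalization did not keep the order in these sets. They were 3.24 and 3.33 for miR-301b, and 3.24, 1.88 and 2.14 for miR-301c. The 22-base probes, dre-miR-301b and dre-miR-301c, were not detected on the female array, at 12.1 and 23.1 above its empty-spot median. The ratio of dre-miR-301c includes its stray female spot, so the ratios and differences of both probes are imprecise.

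Across the family, 14 pairs of detected probes had a longer target that begins with the whole shorter one, and in 13 of them the shorter probe had the larger male minus female difference (median gap 0.28). The exception was dre-miR-301a against ccr-miR-301a, at -0.01. Of the 14 pairs 6 share ola-miR-301b-3p, so they are not independent. Those 6 pairs add 4 to 6 bases and the miR-130c pair adds 3, so the family pairs differ in make-up from those outside. Outside the family 208 such pairs were found, and the shorter probe lay further toward the male in 102 of them (49.0%, median gap -0.0048). The longer probe was the brighter one on both arrays in 12 of the 14 family pairs, with the shorter further toward the male in 11. Outside the family the share was 62.4% of the 85 pairs with the longer probe brighter (median gap 0.08) and 28.4% of the 88 pairs with the shorter brighter (median gap -0.08). By bases added, the shares outside the family were 40.9% for 1 base (115 pairs), 55.1% for 2 bases (49 pairs) and 63.6% for 3 or more (44 pairs). Leaving out stray spots gave 12 of 14 in the family and 126 of 208 (60.6%) outside it. The difference between the family and the other pairs was not tested, and the nested pairs were examined after the values were seen.

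**Figure D3:**
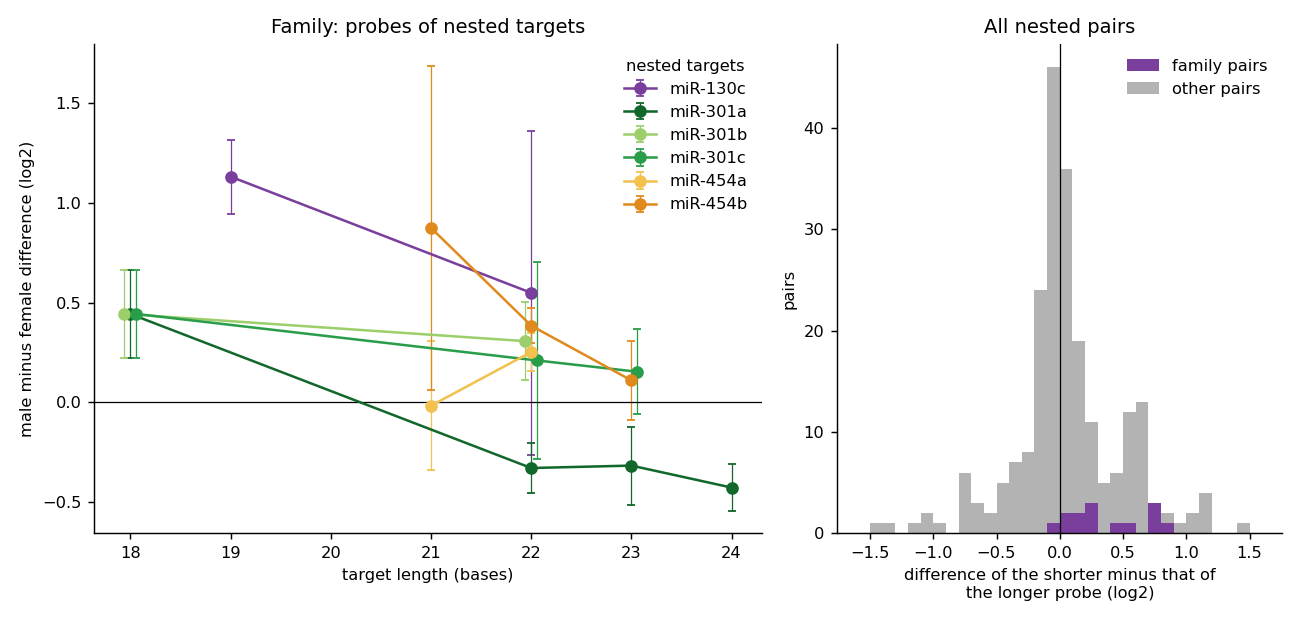
Left, male minus female difference (log2, y axis) against target length in bases (x axis) for sets of nested family targets; bars are the spot SD of the difference, and the 18-base probe is shared by the miR-301 sets. Right, stacked histogram of the difference of the shorter minus that of the longer probe (log2, x axis; y axis number of pairs) for 14 family pairs (purple) and 208 other pairs (grey). Lines fall with length except for the step between the miR-301a probes of 22 and 23 bases (-0.33 and -0.32) and for the miR-454a pair, whose shorter probe was not detected.

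The chip's control probes also differed between the arrays by kind. Controls with M in their names were 1.88-fold brighter on the male array at the median of 27 probes, and controls with P in their names had a ratio of 0.848 at the median of 16, both above the empty spots and before normalization. Their sequences are not known here, and their part in the differences between nested probes was not tested.

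The authors' deposited table, made from the same arrays, gave all 19 detected members the same sign as here. In the authors' deposited table ola-miR-130c has 823 for the male and 331 for the female gonad, 2.48-fold. In the authors' deposited table dre-miR-130b has 2647 for the male and 1351 for the female, 1.96-fold. For dre-miR-130c the authors' deposited table lists 4482 in the male against 3589 in the female, 1.25-fold. ola-miR-130c passed the size rule in every setting tried. Without normalization dre-miR-130b, dre-miR-130c, ccr-miR-454b, dre-miR-454b and ola-miR-301b-3p passed it too, and ccr-miR-454b did with plain background subtraction (1.02). The dim members dre-miR-301b (1.44), dre-miR-301c (1.58) and ipu-miR-130c (1.14) were also past 2-fold with plain subtraction but did not pass the rule. In the authors' deposited table the members detected here on the male array only have female values near its floor, such as 18.1 for the male and 1.91 for the female for dre-miR-454a. So does ccr-miR-454a, detected here on neither array, at 1.94 for the female. The dim opposite-arm probes lie higher there, such as ipu-miR-130c at 15.2 for the female.

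**Figure D4:**
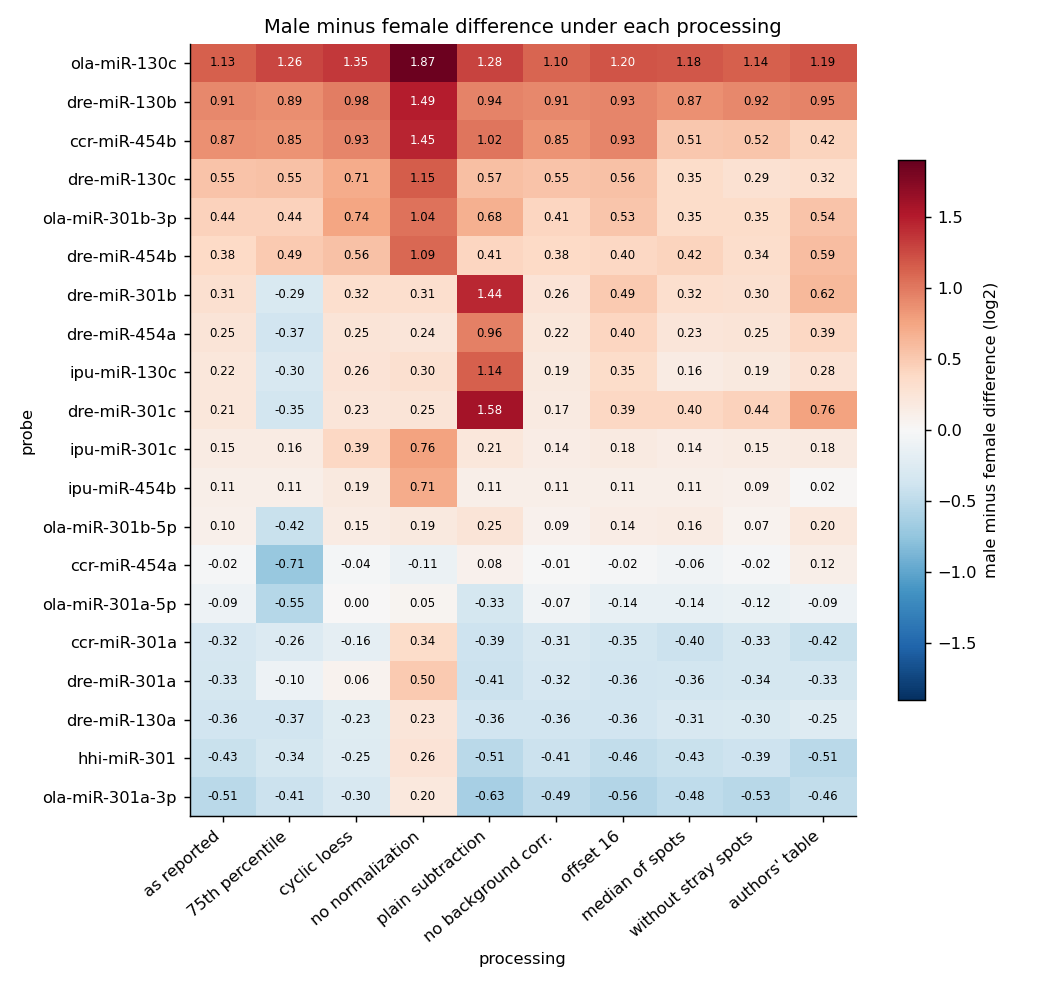
Male minus female difference (log2, colour and number) of each member (rows) under 10 ways of processing the arrays (columns); red is higher in the male and blue higher in the female gonad. ola-miR-130c stays between 1.10 and 1.87, and the miR-301a and miR-130a probes are above 0 without normalization; dre-miR-301a also is with cyclic loess, at 0.06.

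Families whose seed is the miR-130 seed moved by 1 base were set beside it. Of 11 miR-19 probes, opposite arms included, 8 were detected and none passed the size rule in either direction (median -0.06, -0.33 to 0.19). Of 6 probes for miR-148 and miR-152, known in mammals for acting on DNA methyltransferases, 5 were detected and none passed (median 0.28, -0.15 to 0.57). The probes with the largest mean signal were dre-miR-19d, at 12.71 ± 0.10 in the male gonad and 12.99 ± 0.04 in the female, and ola-miR-148, at 11.54 ± 0.15 in the male and 11.69 ± 0.28 in the female. ola-miR-148 was the only detected probe for miR-148 and miR-152 below 0, with 4 above.

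Other miRNAs linked to TGF-beta and BMP signalling showed no member past the size rule, which 6.33% of all detected probes of the chip passed. Their list held 60 probes for miR-17, miR-18, miR-20, miR-21, miR-26, miR-29, miR-93, miR-106, miR-141, miR-143, miR-145, miR-199, miR-200 and miR-429. Of these 52 were detected, with a median difference of -0.0020 (-0.53 to 1.03), 24 above 0 and 26 below. The probe at 1.03, for miR-26, was past 2-fold but its spots overlapped between the arrays. The medians were 0.31 for miR-199, 0.26 for miR-26, 0.16 for miR-29, -0.27 for miR-18 and -0.0040 for miR-21. They were -0.02 for miR-17 with miR-20, miR-93 and miR-106, -0.10 for miR-143 with miR-145, and -0.06 for miR-200 with miR-141 and miR-429. miR-21 and miR-199 are known for being processed faster in response to Smads, the signal carriers of the pathway, in human cells. pol-miR-21-5p read 14.67 ± 0.11 in the male gonad and 14.67 ± 0.07 in the female, and dre-miR-199-5p 12.51 ± 0.09 in the male and 12.62 ± 0.08 in the female. dre-miR-199-5p was the only detected miR-199 probe below 0, with 3 above.

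Outside the family, the 3 detected probes whose difference was nearest to the 1.13 of ola-miR-130c were dre-let-7h (1.17), dre-miR-100 (1.05) and novel_4 (1.04). Likeness is here the gap between single differences over 2 arrays and says nothing of a shared pattern. dre-miR-100 and novel_4 have female spot SDs of 1.75 and 1.36, and dre-miR-100 did not pass the size rule.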

How the data were processed

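Per the labels, small RNAs of gonad total RNA were isolated by size, given a poly(A) tail and joined to a tag that a Cy3 dye stained later. Per the file headers, the deposited values are median spot intensities (3968 spots an array), uncorrected for background. A second deposited table by the authors has a linear value for every probe. No source used here states its background step or scaling. Its medians are 150 (male) and 138 (female), and against the scanner intensity it correlated across probes with r = 0.993 and 0.995.

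The spot intensities were corrected in limma 3.58.1 (R 4.3.3) by normexp with offset 50, turned to log2, averaged per probe over its 5 spots, and put on common quantiles across the 663 probes. The offset shrinks differences of dim probes. Counts, medians and pairs were computed in Python 3.11.15 (pandas 2.3.3, numpy 2.4.6). Precision is limited by having 1 array for each sex.

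The members, lists and settings were chosen with earlier results of these data known. Named were all members, of each other list the probes past the rule or else the one with the largest mean signal, and the 3 probes nearest to ola-miR-130c. Alternatives were other scalings, background steps, summaries and leaving out spots, other detection and size limits, the authors' table, and other treatments of undetected and near-identical members.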

Additional observations from a re-analysis of the deposited data

How the results depend on the processing

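No paired analysis was possible because each sex has 1 array. ola-miR-130c passed the size rule, higher in the male, under every setting tried. The number of members past it toward the male was 1, against 6 without normalization, 2 with plain background subtraction and 3 with a size limit of 0.58; it was 0 toward the female throughout. Over the chip the count toward the male was 23, against 74 without normalization, 38 with plain subtraction and 50 at 0.58. Toward the female it was 8, against 4 with cyclic loess, 0 without normalization, 15 with offset 16, 33 with plain subtraction and 38 at 0.58. The family median was 0.21, against -0.26 with 75th percentile scaling, 0.34 without normalization and 0.41 with plain subtraction. The median of the chip was -0.06, against -0.23, 0.37 and -0.09 in those settings. The miR-130 median was 0.55, against 1.15 without normalization, 0.94 with plain subtraction, 0.35 with the median of spots, 0.29 without stray spots and 0.32 in the authors' deposited table, and 0.26 to 0.67 leaving out 1 repeat spot. The miR-301 median was 0.0055, against -0.31 with 75th percentile scaling, -0.32 with detection at the 99th percentile and 0.29 without normalization. The miR-454 median was 0.32, against 0.90 without normalization and 0.69 with plain subtraction. With 1 probe per set of near-identical targets it was 0.11, which is the value of ipu-miR-454b. The cause of these shifts was not tested. Among nested family pairs the shorter probe lay further toward the male in 11 to 14 of 14 pairs over the settings. Probes near the empty spots, such as dre-miR-301b, dre-miR-301c and dre-miR-454a, changed sign with 75th percentile scaling (-0.29, -0.35 and -0.37), and dim signal limits what they show.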
